A study of Arabidopsis thaliana with 22 samples.

Results

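The *frs7 frs12* double mutant was set directly against the *ahl22* single mutant by RNA-seq, with no Col-0 library in the contrast. The members are the 4 libraries that the sample labels assign to these genotypes, 2 of *frs7 frs12* and 2 of *ahl22*, out of 22 samples in the series. All came from poly(A) RNA of 5-day-old *Arabidopsis thaliana* seedlings grown under long days without further treatment. The double mutant carries *frs7-1* and *frs12-1*, and the single mutant carries *ahl22-1*. No allele is shared between the mutants, so each gene is mutated in 1 group and unmutated by label in the other. All 3 alleles are T-DNA insertions, each represented by 1 allele and 1 line. *ahl22-1* and *frs12-1* come from the SALK collection, which was made in Col-0, whereas *frs7-1* comes from the FLAG collection, which was made in the Wassilewskija accession. Of these alleles, the study's methods give a line number only for *ahl22-1*, and the accession behind *frs7-1* was not tested here. The *ahl22 frs7 frs12* mutant, obtained by crossing both lines, and 1 pair of Col-0 libraries are given only as levels beside the contrast. The study asked how AHL22, FRS7 and FRS12 together restrain hypocotyl elongation, and the direct contrast asks in which transcripts loss of the FRS pair and loss of AHL22 differ.

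AHL22 belongs to the AT-HOOK MOTIF CONTAINING NUCLEAR LOCALIZED family, whose members bind AT-rich DNA in the minor groove and attach chromatin to the nuclear matrix. FRS7 and FRS12 belong to the FHY3, FAR1 and FRS family, which is related to the transposases of *Mutator*-like elements. Both act as transcriptional repressors and are known for restraining growth and flowering through clock-controlled genes such as *GI* and for regulating glucosinolate genes.

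The genotyping primers are shown first because they mark where each mutated gene was interrogated. Each of the 6 oligonucleotides, printed 5′ to 3′, matched 1 place in the TAIR10.1 genome.
frs7-1 LP: tgaaacaaccatgagaaagcc
frs7-1 RP: caactcttatgctacgcggac
frs12-1 LP: attgacatccaattcgacagc
frs12-1 RP: gttcttgtgttcgttggcttc
ahl22-1 LP: gaaaagactcgtgactgtttgc
ahl22-1 RP: aagacggtgacactttccatg
The *frs7-1* primers span chr3:1890795-1891934 (1140 bases) and both lie in coding exons of *FRS7* (chromosome 3, 1888834 to 1892830, minus strand). The *frs12-1* primers span chr5:6330614-6331829 (1216 bases), from an intron to a coding exon of *FRS12* (chromosome 5, 6330297 to 6333650, plus strand). The *ahl22-1* primers span chr2:18727064-18728254 (1191 bases), from outside *AHL22* (chromosome 2, 18727504 to 18729272, plus strand) to its coding exon. The 3 genes therefore lie on 3 chromosomes.

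The *frs7 frs12* libraries held 13122291 and 17236705 counts on 22292 and 23804 genes, against 12992078 and 14299555 counts on 21317 and 21280 genes in *ahl22*. The second *frs7 frs12* library thus detected more genes than any other, and values without it are given where it decides a call. Mitochondria-encoded genes summed to 94.8 and 181 CPM in *frs7 frs12*, against 81.2 and 83.7 CPM in *ahl22*, and the part of this in the results was not tested. Across genes, the Pearson correlation of log2 CPM was 0.990 between the *frs7 frs12* replicates and 0.992 between the *ahl22* replicates. Between the mutants it was 0.979 to 0.982, and against the Col-0 pair 0.922 to 0.931. The mutants were therefore closer to each other than either was to the Col-0 pair. Of 3 defining root markers, *PIN2* and *EXPA7* were low in both mutants and *PLT1* was not alike in them. *PIN2*, an auxin exporter of the root tip, had 1.76 and 2.71 CPM in *frs7 frs12* and 3.39 and 2.68 CPM in *ahl22*, against 24.4 and 27.6 CPM in Col-0. The root hair gene *EXPA7* stayed at or below 0.401 CPM in both mutants. *PLT1*, a regulator of the root stem cell niche, had 7 and 7 counts in *frs7 frs12*, against 0 and 0 counts in *ahl22*, with 8 and 11 counts in Col-0. The 19 seed maturation genes summed to 2.16 and 3.305 CPM in *frs7 frs12* and to 2.48 and 2.15 CPM in *ahl22*, and none of them passed the filter on low counts. In Col-0 these genes summed to 95.3 and 84.9 CPM. CPM are read counts relative to the size of the library, scaled by the TMM method of edgeR.

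Transcripts of the genes mutated in the double mutant were lower in it than in *ahl22*. *FRS12* had 4.25 and 4.43 CPM in *frs7 frs12*, against 37.9 and 32.1 CPM in *ahl22*, a log2 fold change of -3.01 ± 0.16 (SE, adjusted p = 5.5e-14 by edgeR's quasi-likelihood test). *FRS7* had 11.9 and 9.80 CPM in *frs7 frs12*, against 21.4 and 21.9 CPM in *ahl22* (-1.003 ± 0.150, adjusted p = 2.8e-05). The groups did not overlap for either gene, and both were also low in *ahl22 frs7 frs12*, with 3.77 and 4.01 CPM for *FRS12* and 8.40 and 11.1 CPM for *FRS7*. Col-0 had 32.1 and 37.2 CPM for *FRS12*, near *ahl22*. For *FRS7*, Col-0 had 16.2 and 14.9 CPM, between the mutants. *AHL22* did not separate the mutants. It had 1.84 and 1.53 CPM in *frs7 frs12*, against 0.904 and 1.14 CPM in *ahl22* (0.70 ± 0.49, adjusted p = 0.43 by edgeR), while Col-0 had 20.0 and 18.22 CPM. *AHL22* was thus low in every mutant library compared here, also in those whose label leaves it unmutated, and its level cannot check the *ahl22* label. *HDA15*, the histone deacetylase gene of the same study, had a log2 fold change of -0.08 ± 0.10 (adjusted p = 0.72 by edgeR).

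**Figure D1:**
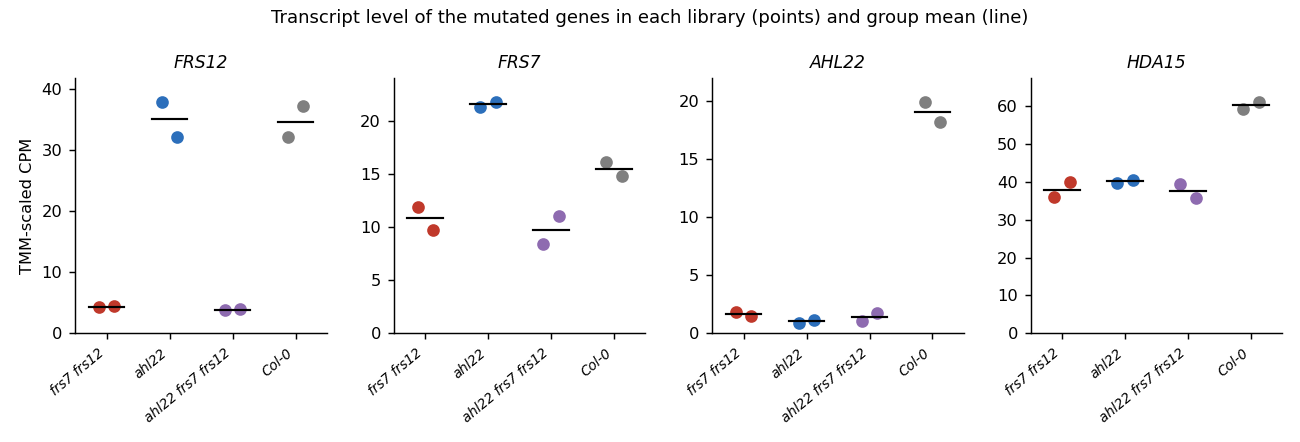
TMM-scaled CPM (vertical axes, from 0) of the mutated genes and *HDA15* in each library (points) with the group mean (lines), for *frs7 frs12*, *ahl22*, *ahl22 frs7 frs12* and Col-0. *FRS12* and *FRS7* were lower in *frs7 frs12* than in *ahl22*, whereas *AHL22* was at or below 1.84 CPM in the 3 mutants.

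Relatives of the mutated genes were tested as 2 families. Of 14 FHY3, FAR1 and FRS genes tested, only *FRS12* and *FRS7* passed an adjusted p below 0.05, and of 24 AHL genes tested 0 did in the edgeR test, with log2 fold changes from -0.46 to 0.70. Without the first *frs7 frs12* library 3 FRS genes and 1 AHL gene were lower. *AT5G18970*, which overlaps *FRS12* by 440 bases on the opposite strand, had 23.47 and 17.76 CPM in *frs7 frs12*, against 9.64 and 8.46 CPM in *ahl22* (1.18 ± 0.17, adjusted p = 1.2e-05 by edgeR). Whether the counting used strand is not given in the sources used here, so reads of the 2 genes cannot be told apart in the shared bases.

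The direct contrast was small. Of 18681 genes tested, 304 were DEGs, defined by a log2 fold change beyond 1 in either direction at an adjusted p below 0.05 (1.63%). Of these, 115 were higher in *frs7 frs12* (0.616%) and 189 were lower (1.01%). At the adjusted p alone, 987 genes were higher (5.28%) and 873 lower (4.67%), and the median log2 fold change over all genes was -0.0028. The libraries of the mutants did not overlap for any of the 304 DEGs, but with 2 libraries a group this also held for 51.1% of all genes tested. The count of DEGs moved with the libraries used. It was 361 and 440 without the first and the second *frs7 frs12* library, and 201 and 211 without the first and the second *ahl22* library.

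The DEGs were unevenly spread along the chromosomes. A set of 4 stretches, found as runs of at least 3 neighbouring 1 Mb bins with at least 3 DEGs each, held 174 DEGs, 58.4% of those placed on the chromosomes, on 19.1% of the genes tested. This rule was chosen after the positions had been seen, and the shares are descriptions without a test. The first 6 Mb of chromosome 2 held 40 DEGs among 354 genes tested (11.3%), 17 higher and 23 lower in *frs7 frs12*. The first 10 Mb of chromosome 3, which include *FRS7*, held 89 among 2060 (4.32%), 29 higher and 60 lower. On chromosome 5, 15 to 18 Mb held 26 among 451 (5.76%) and 24 to 27 Mb held 19 among 656 (2.90%). Everywhere else, 124 of 14961 genes were DEGs (0.829%). The stretches were chosen by their DEGs in this same contrast, so a larger share than elsewhere was built in. Fits with any single library left out reuse the other libraries and cannot test the stretches. In these fits each stretch kept a larger share than the remainder of the chromosomes. Chromosome 2 then had 8.01% to 13.2% and chromosome 3 had 3.24% to 5.36%, against 0.423% to 1.48% elsewhere. The stretches on chromosome 5 had 4.54% to 6.72% at 15 to 18 Mb and 1.497% to 3.47% at 24 to 27 Mb, where the number of DEGs was 10 to 23.

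**Figure D2:**
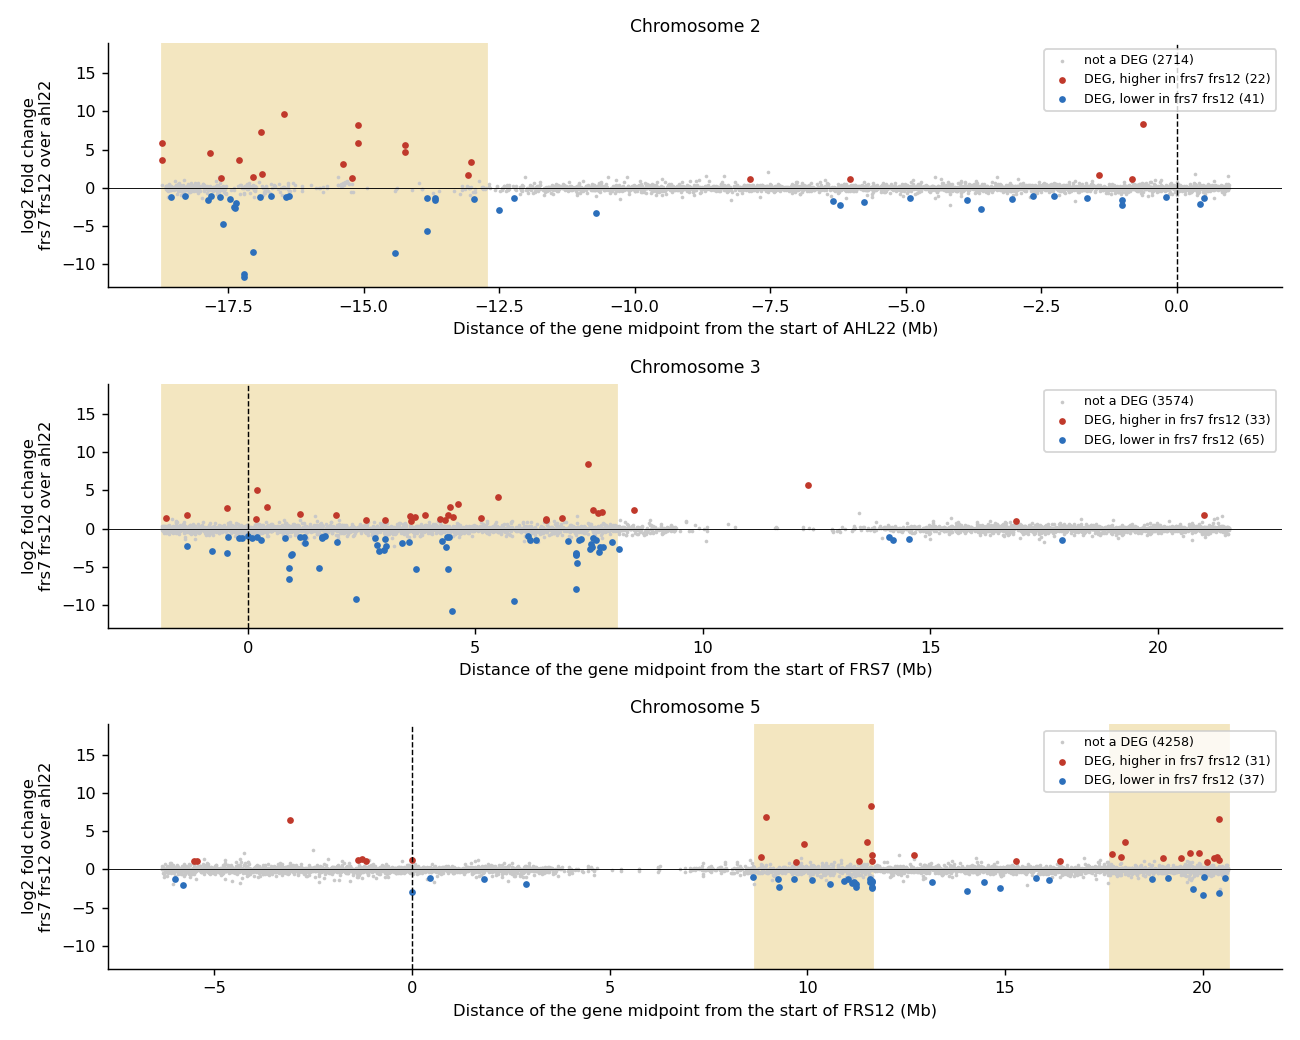
Log2 fold change of *frs7 frs12* over *ahl22* (vertical axes) for each gene tested on chromosomes 2, 3 and 5 by its distance in Mb from the start of *AHL22*, *FRS7* or *FRS12* (horizontal axes, dashed lines at 0). Red and blue points are DEGs higher and lower in *frs7 frs12*, grey points are other genes, and shading marks the stretches rich in DEGs, of which 1 lies around *FRS7* and none around *AHL22* or *FRS12*.

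The stretch on chromosome 3 surrounded *FRS7*, but neither of the other mutated genes lay in one. Within 2 Mb of *FRS7*, 31 of 898 genes tested were DEGs (3.45%), 8 higher and 23 lower in *frs7 frs12*. Within 2 Mb of *AHL22* there were 9 of 648 (1.39%), and within 2 Mb of *FRS12* there were 7 of 803 (0.872%), both below the share over all genes. The *ahl22 frs7 frs12* libraries, which share libraries with each comparison they enter, divided the stretches. Set against *ahl22* in its own fit, *ahl22 frs7 frs12* had 2 DEGs on the chromosome 2 stretch (0.587%) and 113 on chromosome 3 (5.51%). It had 30 and 27 on chromosome 5 (6.64% and 4.14%), against 2.7% of all genes tested. Set against *frs7 frs12*, it had 31 on chromosome 2 (8.88%) and 7 on chromosome 3 (0.346%). It had 2 and 11 on chromosome 5 (0.443% and 1.70%), against 0.903% of all genes tested. By the share of DEGs, *ahl22 frs7 frs12* was thus nearer to *ahl22* on the chromosome 2 stretch. On chromosome 3 and at 15 to 18 Mb of chromosome 5 it was nearer to *frs7 frs12*. Single genes could differ, as *LHCB2.2* on the chromosome 2 stretch did. The origin of the *frs7-1* line and the loss of *FRS7* cannot be told apart on the chromosome 3 stretch, because all libraries with the mutation carry that line.

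**Figure D3:**
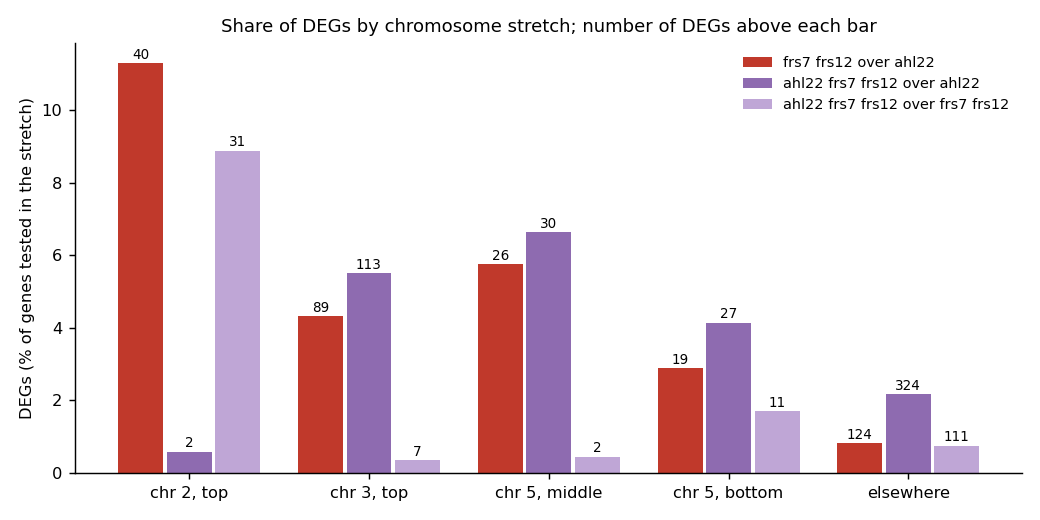
Share of genes tested that were DEGs (vertical axis, percent) in each of the 4 stretches and elsewhere on the chromosomes, for *frs7 frs12* over *ahl22* and for *ahl22 frs7 frs12* over either mutant, with the number of DEGs above each bar. The chromosome 2 stretch stood at 11.3% and 8.88% in the comparisons with *frs7 frs12* and at 0.587% between *ahl22 frs7 frs12* and *ahl22*.

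A total of 33 DEGs had at most 3 counts in both libraries of 1 mutant. In *frs7 frs12* there were 18 such genes, 7 on chromosome 2 and 9 on chromosome 3, and 8 of them had no count at all. *AT2G04380* (chr2:1525642-1526767), of unknown function, had 0 counts in *frs7 frs12*, against 28.3 and 28.2 CPM in *ahl22*. Against a floor of 3 counts, taken in CPM as the average over both libraries of the low mutant, this is at least 135-fold lower. It overlaps *AT2G04378* on the opposite strand over 1126 bases, and that gene, annotated as related to beta-galactosidase, was at least 99.0-fold lower. Both were present in *ahl22 frs7 frs12*, with 33.3 and 30.9 CPM for *AT2G04380* and 20.5 and 23.53 CPM for *AT2G04378*. A set of 4 genes on chromosome 3 showed the opposite arrangement, with no count in *frs7 frs12* or in *ahl22 frs7 frs12*. *AT3G18535*, annotated as a tubulin-tyrosine ligase, was at least 75.8-fold lower in *frs7 frs12* (0 counts, against 16.3 and 15.4 CPM in *ahl22*). The methyltransferase gene *AT3G21950* was at least 28.8-fold lower, *AT3G13240* at least 24.3-fold lower and *AT3G24929* at least 9.94-fold lower. *AT3G24929* shares 96.2% identity with *RLP42* over 2005 bases and overlaps *AT3G24982* on the opposite strand, so its counts are uncertain. The MADS-box gene *SEP4*, a floral organ identity factor on chromosome 2, had 0.240 and 0 CPM in *frs7 frs12*, against 3.09 and 2.89 CPM in *ahl22*.

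In *ahl22*, 15 DEGs had at most 3 counts in both libraries, 6 on chromosome 2 and 5 on chromosome 5, and 7 of them had none. *AT3G25719* was at least 15.1-fold higher in *frs7 frs12* (4.09 and 2.36 CPM, against 0 counts in *ahl22*) and had 6.44 and 7.06 CPM in *ahl22 frs7 frs12*. *AT2G43660*, annotated with a carbohydrate-binding domain, was at least 12.9-fold higher (2.72 and 2.77 CPM in *frs7 frs12*, against 0 counts in *ahl22*). Neither had more than 0.0885 CPM in Col-0. Of all 33 genes, 4 have a near-identical copy elsewhere (at least 95% identity over at least 150 bases) and 8 overlap another gene, which leaves 24 with neither.

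The largest increases were of 2 kinds. *AT2G05915*, of unknown function, had 135 and 117 CPM in *frs7 frs12*, against 0 and 0.268 CPM in *ahl22* (9.71 ± 0.22, adjusted p = 4.2e-22 by edgeR), and 0.0785 and 0.0871 CPM in *ahl22 frs7 frs12*. *AT3G21080*, annotated as similar to ABC transporters, had 20.6 and 22.5 CPM in *frs7 frs12*, against 1.81 and 0.738 CPM in *ahl22* (4.10 ± 0.25, adjusted p = 1.1e-12), and 18.4 and 19.6 CPM in *ahl22 frs7 frs12*. In these genes the replicates were close. In others the second *frs7 frs12* library was far above the first. *AT2G01008* had 4.73 and 54.1 CPM in *frs7 frs12*, against 0.602 and 0.403 CPM in *ahl22*, and *AT3G41762* had 11.8 and 133 CPM, against 1.28 and 1.61 CPM. *AT1G40104*, *AT2G08986*, *AT2G07981* and *AT5G10340* were also higher in that library, by 2.75 to 4.97 times over the first. *AT2G01008*, *AT3G41762* and *AT5G10340* share near-identical sequence, as do *AT2G07981* and *AT2G08986*. With robust empirical Bayes estimation *AT2G01008* and *AT3G41762* lost their calls (adjusted p = 0.38 for both in edgeR), as did *AT1G40104*, *AT2G08986* and *AT2G07981* (adjusted p = 0.080 to 0.15). Other genes of the largest increases were *AT2G11270*, annotated as citrate synthase-like, and *AT2G03020*, annotated in the family of small heat shock proteins, at 5.65 and 4.58.

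Characterized genes among the largest decreases encoded a lectin and a receptor-like protein. *JAL33*, a jacalin-related lectin gene whose product is found in complexes of the myrosinase PYK10, had 2.88 and 1.83 CPM in *frs7 frs12*, against 96.6 and 86.6 CPM in *ahl22* (-5.32 ± 0.15, adjusted p = 2.5e-20 by edgeR). It had 2.51 and 2.96 CPM in *ahl22 frs7 frs12* and lies on the chromosome 3 stretch. *RLP34*, a receptor-like protein gene on the same stretch, had 0 and 0.236 CPM in *frs7 frs12*, against 5.04 and 5.23 CPM in *ahl22* (-5.17 ± 0.57). *MRD1*, named for its reduced level in *mto1* plants, lies on chromosome 1 outside the stretches. It had 0.481 and 0.354 CPM in *frs7 frs12*, against 32.0 and 32.6 CPM in *ahl22* (-6.28 ± 0.24, adjusted p = 4.8e-17), and 27.2 and 26.1 CPM in *ahl22 frs7 frs12*. *MRD1* overlaps the meiotic gene *HEI10* on the opposite strand over 1446 bases, and *HEI10* was lower too (-1.86 ± 0.42, adjusted p = 0.0038 by edgeR), a call lost without the first *ahl22* library (adjusted p = 0.20).

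Cold-response genes were lower in *frs7 frs12* than in *ahl22*. CBF factors, which are induced by low temperature and bind the CRT/DRE element with the core CCGAC, activate *COR* genes for membrane and protein protection. Of 18 list members tested, 10 were lower (adjusted p below 0.05) and 0 higher, with a median log2 fold change of -0.70, where 4.67% of all genes were lower and the median was -0.0028. Of the 10, 9 lie outside the stretches rich in DEGs. *CBF2* had 11.3 and 11.9 CPM in *frs7 frs12*, against 23.57 and 24.4 CPM in *ahl22* (-1.05 ± 0.14, adjusted p = 5.1e-06 by edgeR), and *CBF3* was lower by a similar amount (-1.35 ± 0.20). *COR15A*, which encodes a protectant of chloroplast membranes, had 1.28 and 1.59 CPM in *frs7 frs12*, against 4.97 and 3.83 CPM in *ahl22* (-1.59 ± 0.36), and its neighbour *COR15B* had 0.721 and 1.18 CPM, against 5.20 and 4.16 CPM (-2.25 ± 0.39). *COR413IM1*, a gene of the chloroplast inner envelope, had 16.2 and 19.003 CPM in *frs7 frs12*, against 39.9 and 41.2 CPM in *ahl22* (-1.20 ± 0.12). The groups did not overlap in any of these genes.

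More abundant cold and dehydration genes changed less. *RD29A* had 45.2 and 48.7 CPM in *frs7 frs12*, against 79.8 and 88.5 CPM in *ahl22* (-0.84 ± 0.08, adjusted p = 4.0e-08 by edgeR), and *KIN2* had 81.2 and 77.0 CPM, against 140.1 and 128 CPM (-0.76 ± 0.07). *ERD10*, *RAB18* and *ZAT10* were lower at -0.39, -0.63 and -0.87. *COR47*, a dehydrin gene, had 235 and 284 CPM in *frs7 frs12*, against 279 and 288 CPM in *ahl22* (-0.13 ± 0.07, adjusted p = 0.33), and *CBF1*, *LTI30*, *KIN1*, *GOLS1*, *GOLS3*, *RD29B* and *ZAT12* did not pass the test either. Col-0 had 42.9 and 46.0 CPM for *RD29A* and 82.9 and 69.2 CPM for *KIN2*, near *frs7 frs12* in both genes. In *ahl22 frs7 frs12*, all 10 genes that were lower in *frs7 frs12* also stood below *ahl22*, for example *RD29A* at 15.6 and 11.8 CPM and *KIN2* at 44.8 and 36.2 CPM. The count was 10 without either *frs7 frs12* library but 6 and 8 without the first and the second *ahl22* library, and 7 with DESeq2. *ERD10* and *ZAT10* lost their calls without either *ahl22* library (adjusted p = 0.065 to 0.34 by edgeR), *ZAT10* also without the second *frs7 frs12* library (adjusted p = 0.13), and *COR15A* and *RAB18* without the first *ahl22* library (adjusted p = 0.13 and 0.14).

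The promoters of *RD29A* and *COR15A* are shown because their CCGAC cores are the classical binding sites of CBF factors. Each run is the 250 bases before the annotated start in RefSeq TAIR10.1, 5′ to 3′ along the gene, with CCGAC or its reverse complement GTCGG in capitals. *RD29A* is at chr5:21240467-21240716, plus strand, and *COR15A* at chr2:17712331-17712580, minus strand.
RD29A: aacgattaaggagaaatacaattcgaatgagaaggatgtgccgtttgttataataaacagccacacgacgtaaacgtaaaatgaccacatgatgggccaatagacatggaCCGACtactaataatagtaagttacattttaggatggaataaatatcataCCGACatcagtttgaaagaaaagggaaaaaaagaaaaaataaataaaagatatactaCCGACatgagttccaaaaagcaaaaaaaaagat
COR15A: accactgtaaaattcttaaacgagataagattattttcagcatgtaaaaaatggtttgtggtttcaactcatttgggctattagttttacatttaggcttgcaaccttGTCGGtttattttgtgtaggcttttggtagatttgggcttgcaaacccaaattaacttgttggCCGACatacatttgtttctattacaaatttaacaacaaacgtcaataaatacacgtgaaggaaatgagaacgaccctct
*RD29A* held 3 matches and *COR15A* 2. Over all tested genes, 2393 of 18481 such windows held the core on either strand (12.9%), against 6 of the 18 cold genes and 3 of the 10 that were lower. A match is a description of the letters, and 7 of the 10 lower genes had none in this window.

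Clock genes also separated the mutants. The plant clock runs through morning genes (*CCA1*, *LHY*) and evening genes (*TOC1*, *GI*, the evening complex) that repress each other in turn, with *PRR9*, *PRR7* and *PRR5* expressed in sequence over the day. Of 10 evening genes tested, 4 were lower in *frs7 frs12* and 0 higher, with a median of -0.33. Over all genes, 4.67% were lower and 5.28% higher. *PRR5* had 15.0 and 17.35 CPM in *frs7 frs12*, against 30.6 and 30.2 CPM in *ahl22* (-0.90 ± 0.13, adjusted p = 1.0e-05 by edgeR). *FKF1*, a blue-light receptor of the flowering pathway, had 5.45 and 3.54 CPM, against 9.41 and 8.72 CPM (-1.03 ± 0.24, adjusted p = 0.0039). *GI*, which partners FKF1 and is a known target of FRS12, had 61.0 and 65.6 CPM in *frs7 frs12*, against 80.0 and 78.7 CPM in *ahl22* (-0.32 ± 0.08, adjusted p = 0.0072), and *ELF3* was at -0.44 ± 0.13. Levels in *ahl22 frs7 frs12* were lower again for *PRR5* (5.97 and 6.19 CPM), *FKF1* (0.942 and 2.09 CPM) and *GI* (49.1 and 53.5 CPM). In Col-0, *PRR5* (46.8 and 59.5 CPM), *FKF1* (12.9 and 11.9 CPM) and *GI* (145 and 173 CPM) stood above both mutants. *TOC1*, *LUX*, *ELF4*, *PRR3*, *ZTL* and *BOA* did not pass the test.

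Of these 4 calls, only that of *PRR5* held when each library was left out in turn. *FKF1* lost its call without the first *ahl22* library (adjusted p = 0.072 by edgeR), *GI* without either *ahl22* library (adjusted p = 0.14 and 0.11) and *ELF3* without the first *frs7 frs12* library or either *ahl22* library (adjusted p = 0.12 to 0.25). Without the first *ahl22* library the count of evening genes was 1, without the second it was 2, and with DESeq2 it was 1. Without the first and the second *frs7 frs12* library it was 3 and 6. Among 8 morning genes, *PRR9* had 10.2 and 12.7 CPM in *frs7 frs12*, against 26.96 and 31.5 CPM in *ahl22* (-1.34 ± 0.14, adjusted p = 9.3e-08 by edgeR). *PRR9* had 10.6 and 13.4 CPM in Col-0, near *frs7 frs12*. Its near-identical copy *AT2G46670* (99.7% identity over 871 bases) was lower too (-2.11 ± 0.37, adjusted p = 0.00024, but 0.076 without the second *ahl22* library), so reads of the 2 genes may be shared. *LNK2* (0.36 ± 0.06) and *RVE4* (0.38 ± 0.07) were higher, calls that were lost without the second *ahl22* library (adjusted p = 0.053 and 0.062), and *CCA1* did not pass (-0.02 ± 0.14, adjusted p = 0.97). The hour of harvest is not given in the sources used here.

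**Figure D4:**
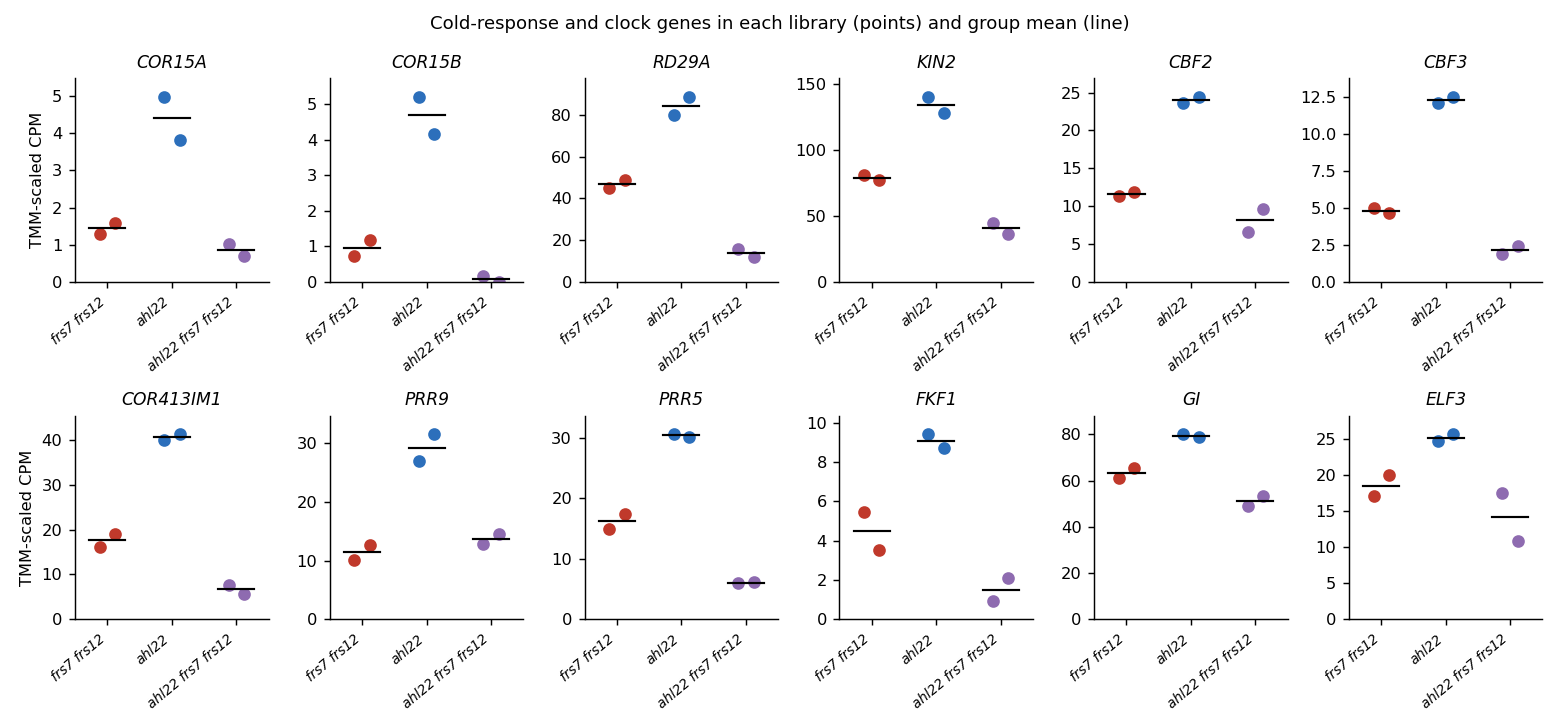
TMM-scaled CPM (vertical axes, from 0) of 7 cold-response and 5 clock genes in each library (points) with the group mean (lines), for *frs7 frs12*, *ahl22* and *ahl22 frs7 frs12*. In all 12 genes both *frs7 frs12* libraries lie below both *ahl22* libraries, for example 11.3 and 11.9 CPM below 23.57 and 24.4 CPM for *CBF2*.

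The promoters of *PRR5* and *FKF1* are shown because both hold the evening element, through which morning factors act on evening genes. The windows are built as above and lie at chr5:8358547-8358796, minus strand, and chr1:25508389-25508638, plus strand. Capitals mark AAAATATCT or its reverse complement AGATATTTT, and in *PRR5* also GTCGG.
PRR5: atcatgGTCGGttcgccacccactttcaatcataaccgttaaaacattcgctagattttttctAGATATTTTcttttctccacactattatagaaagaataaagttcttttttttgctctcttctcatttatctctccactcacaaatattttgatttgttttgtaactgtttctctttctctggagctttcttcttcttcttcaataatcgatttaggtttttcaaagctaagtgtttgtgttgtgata
FKF1: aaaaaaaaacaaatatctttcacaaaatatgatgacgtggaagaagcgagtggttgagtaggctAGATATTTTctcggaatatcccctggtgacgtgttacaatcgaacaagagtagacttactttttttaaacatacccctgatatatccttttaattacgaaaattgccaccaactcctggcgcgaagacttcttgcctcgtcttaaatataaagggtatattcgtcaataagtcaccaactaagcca
The evening element, searched on both strands, was in 478 of 18481 windows (2.59%), in 5 of the 10 evening genes and in 2 of the 4 that were lower.

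Photosynthesis genes were slightly higher in *frs7 frs12* than in *ahl22*. Of 46 nuclear genes for light-harvesting proteins, photosystem subunits, Rubisco small subunits and Rubisco activase, 24 were higher and 2 lower, and 44 had a positive log2 fold change with a median of 0.22. Over all genes, 5.28% were higher and 4.67% lower. Outside the stretches rich in DEGs, 18 of 35 photosynthesis genes were higher and 0 lower. The summed level of the 46 genes was 266595 and 246122 CPM in *frs7 frs12*, against 224162 and 215693 CPM in *ahl22*. Col-0 had 259606 and 265187 CPM. More cells of a type and more RNA per cell cannot be told apart in whole seedlings. Among single genes, *RBCS1A* had 13526 and 13034 CPM in *frs7 frs12*, against 11072 and 10785 CPM in *ahl22* (0.28 ± 0.06, adjusted p = 0.0028 by edgeR), and *RCA*, which encodes Rubisco activase, was at 0.30 ± 0.06. Both lost their calls without either *ahl22* library (adjusted p = 0.11 to 0.26). The changes were small, and 7 and 3 genes were called without the first and the second *ahl22* library, against 28 and 37 without the first and the second *frs7 frs12* library.

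A pair of *LHCB2* genes went opposite ways. *LHCB2.1* and *LHCB2.2* encode major antenna proteins of photosystem II and lie close together on the chromosome 2 stretch. *LHCB2.1* had 2199.9 and 2005 CPM in *frs7 frs12*, against 4706 and 4555 CPM in *ahl22* (-1.14 ± 0.06, adjusted p = 1.8e-13 by edgeR). *LHCB2.2* had 5727 and 5134 CPM, against 3252 and 3177 CPM (0.76 ± 0.06, adjusted p = 1.6e-09). In *ahl22 frs7 frs12*, *LHCB2.1* stood at 6679.7 and 6910.2 CPM, above both mutants. *LHCB2.2* stood at 4772.9 and 5031.5 CPM there, nearer to *frs7 frs12* than to *ahl22*. The third member, *LHCB2.3* on chromosome 3, was at 0.42 ± 0.06. *RBCS2B*, at 15 to 18 Mb of chromosome 5, had the largest increase of the Rubisco genes (0.72 ± 0.06).

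Genes of glucosinolate breakdown were called in both directions. Myrosinases (TGGs, PYK10) cleave glucosinolates, and specifier and modifier proteins steer the product to isothiocyanates, nitriles or others. *ESM1*, which favours isothiocyanates, had 47.1 and 40.5 CPM in *frs7 frs12*, against 204 and 193 CPM in *ahl22* (-2.19 ± 0.08, adjusted p = 1.3e-17 by edgeR). *NSP4*, a nitrile specifier gene, had 122 and 123 CPM, against 45.0 and 38.5 CPM (1.56 ± 0.08, adjusted p = 6.4e-14). Both lie on the chromosome 3 stretch, and *ahl22 frs7 frs12* matched *frs7 frs12* in both, at 43.6 and 50.02 CPM for *ESM1* and 139 and 140.0 CPM for *NSP4*. *NSP4* shares 96.5% identity with *NSP1* over 994 bases. The myrosinase genes *TGG2*, *TGG1* and *PYK10* were lower at -0.89, -0.35 and -0.48, and *NSP5* was higher at 0.27, which makes 2 higher and 4 lower of 13 tested. The shares over all genes were 5.28% higher and 4.67% lower. *ESM1*, *NSP4* and *PYK10* lie on the chromosome 3 stretch, and outside the stretches 1 was higher and 2 lower of 7. *NSP5* lost its call without the first *frs7 frs12* library or either *ahl22* library (adjusted p = 0.056 to 0.40).

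Genes of glucosinolate synthesis are also read against the 5.28% of all genes that were higher and the 4.67% that were lower. Of 20 aliphatic glucosinolate genes tested, 4 were higher (*MAM1*, *CYP83A1*, *IPMI1* and *IPMI2*, 0.32 to 0.48) and 0 lower, with a median of 0.0004. Each call was lost without 1 of the *ahl22* libraries, *MAM1* without the first (adjusted p = 0.070 by edgeR), *IPMI1* without the second (adjusted p = 0.14) and *CYP83A1* and *IPMI2* without either (adjusted p = 0.063 to 0.24). *IPMI2* was also lost without the second *frs7 frs12* library (adjusted p = 0.14). Of 16 indole glucosinolate genes, 1 was higher (*MYB51*) and 2 were lower (*IGMT1* and *MYB34*), and each of these was lost without either *ahl22* library (adjusted p = 0.064 to 0.35). *IGMT1* was also lost without the first *frs7 frs12* library (adjusted p = 0.072) and *MYB51* without the second (adjusted p = 0.45).

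Jasmonate genes were split. Jasmonate is made from plastid fatty acids by LOX, AOS and AOC enzymes and acts through MYC factors once JAZ repressors are degraded. *AOC2* had 9.37 and 7.73 CPM in *frs7 frs12*, against 55.3 and 55.0 CPM in *ahl22* (-2.70 ± 0.12, adjusted p = 3.1e-15 by edgeR), and 6.75 and 5.58 CPM in *ahl22 frs7 frs12*. Its neighbour *AOC1* was higher (20.6 and 26.3 CPM, against 15.5 and 14.8 CPM, 0.64 ± 0.14). *MYC2*, the master regulator, had 17.1 and 18.8 CPM in *frs7 frs12*, against 29.4 and 30.5 CPM in *ahl22* (-0.73 ± 0.12, adjusted p = 0.00013), but it overlaps *AT1G32630* on the opposite strand. *ST2A*, which sulfates hydroxylated jasmonate, was higher (0.97 ± 0.10), as were *AOS* and *JAZ3*, whereas *LOX2* and *MYC4* were lower, giving 4 higher and 4 lower of 26 tested. The shares over all genes were 5.28% higher and 4.67% lower. *AOC2* and *AOC1* lie on the chromosome 3 stretch, and outside the stretches 1 jasmonate gene was higher and 3 were lower of 20. The smaller changes were less stable, since *AOC1* lost its call without the second *ahl22* library (adjusted p = 0.066), *JAZ3* without the first (adjusted p = 0.28), *LOX2* without the first *ahl22* or the second *frs7 frs12* library (adjusted p = 0.061 and 0.057) and *MYC4* without the first *frs7 frs12* library or either *ahl22* library (adjusted p = 0.056 to 0.38).

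Nutrient genes moved in single steps. Of 17 nitrate and ammonium genes tested, 5 were higher and 0 lower, with a median of 0.21. Over all genes, 5.28% were higher and 4.67% lower. *GLN1;1*, a cytosolic glutamine synthetase gene, had 104 and 106 CPM in *frs7 frs12*, against 60.5 and 57.2 CPM in *ahl22* (0.84 ± 0.08, adjusted p = 6.1e-09 by edgeR). The nitrate transporter gene *NRT1.1* (0.41 ± 0.07), the nitrate reductase gene *NIA2* (0.33 ± 0.06), *GDH1* and *GLN2* followed, and 3 and 2 of the 5 were called without the first and the second *ahl22* library. *GDH1* and *GLN2* lost their calls without either (adjusted p = 0.10 to 0.47) and *NIA2* without the second (adjusted p = 0.11). Among 22 phosphate and sulfate genes, *SPX1*, a phosphate sensor gene induced by starvation, had 19.7 and 21.4 CPM in *frs7 frs12*, against 46.7 and 46.6 CPM in *ahl22* (-1.18 ± 0.11, adjusted p = 6.7e-09). The starvation-induced non-coding RNA *IPS1* went the other way, with 8.09 and 7.32 CPM, against 1.73 and 2.42 CPM (1.88 ± 0.28, adjusted p = 2.7e-05). *IPS1* lies on the chromosome 3 stretch. *PHT1;4*, *SQD1* and *APR2* were higher and *SULTR2;1* was lower. All 3 of these increases were lost without the second *ahl22* library (adjusted p = 0.096 to 0.18), *SQD1* also without the first (adjusted p = 0.063) and *APR2* without the first *frs7 frs12* library (adjusted p = 0.054).

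Auxin and growth genes showed both directions. Of 52 auxin genes tested, 7 were higher and 4 lower, with a median of -0.006. Outside the stretches rich in DEGs 4 were higher and 3 lower of 42, and *IAA9* lies at 24 to 27 Mb of chromosome 5. *GH3.3*, which conjugates auxin to amino acids, had 157 and 142 CPM in *frs7 frs12*, against 84.1 and 80.5 CPM in *ahl22* (0.86 ± 0.07, adjusted p = 1.7e-09 by edgeR). *IAA9*, an auxin-response repressor gene, was higher (0.71 ± 0.06), and *IAA1* was lower (-0.91 ± 0.22, with an adjusted p of 0.054 without the first *frs7 frs12* and 0.051 without the second *ahl22* library). Of the 10 *SAUR* and *YUC* genes that the study names as auxin-responsive, *YUC8* was higher (0.39 ± 0.10) and *SAUR16* and *SAUR20* were lower (-0.41 ± 0.08 and -0.36 ± 0.11), while *SAUR6*, *SAUR14*, *SAUR15*, *SAUR21*, *SAUR51*, *SAUR78* and *YUC9* did not pass, with log2 fold changes from -0.35 to 0.28. The study names several of these *SAUR* genes from libraries of this series, and *YUC8* and *YUC9* from earlier work, so the list is not independent evidence of a direction. *YUC8* and *SAUR20* lost their calls without the first *frs7 frs12* library or either *ahl22* library (adjusted p = 0.069 to 0.31), and *SAUR16* without the second *ahl22* library (adjusted p = 0.072), while *SAUR21* was called lower without the first *frs7 frs12* library (adjusted p = 0.0031). Over the 58 *SAUR* family genes tested, 3 were higher and 5 lower, near the shares over all genes of 5.28% and 4.67%. Of the 3, *AT4G34810* lost its call without the first *ahl22* library (adjusted p = 0.11), and without the second 0 were lower in the edgeR test. The auxin list gave 4 higher and 1 lower without the first *ahl22* library, and 2 higher and 0 lower without the second.

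Of 37 expansin and xyloglucan endotransglucosylase genes tested, which loosen or remodel the wall, 8 were higher and 5 lower. The shares over all genes were 5.28% higher and 4.67% lower. *XTH18* had 23.95 and 24.1 CPM in *frs7 frs12*, against 12.2 and 10.6 CPM in *ahl22* (1.08 ± 0.14, adjusted p = 4.3e-06 by edgeR), and *XTH24*, *XTH7* and *XTH4* were higher at 0.64, 0.47 and 0.43. *XTH9*, *EXPA16*, *EXPA5*, *EXPA10* and *XTH31* were lower. *XTH31* and *EXPA10* lost their calls without either *ahl22* library (adjusted p = 0.076 to 0.28), *XTH31* also without the second *frs7 frs12* library (adjusted p = 0.051) and *EXPA5* without the first *ahl22* library (adjusted p = 0.060). Among 22 gibberellin and brassinosteroid genes, the brassinosteroid enzyme gene *CPD* and the growth factor gene *BEE3* were higher, and *HBI1* and *PRE1* were lower. *HBI1* and *PRE1* lost their calls without either *ahl22* library (adjusted p = 0.10 to 0.35), *HBI1* also without the first *frs7 frs12* library (adjusted p = 0.077) and *PRE1* without the second (adjusted p = 0.11). *IBH1*, whose protein binds and inhibits such growth factors, lies within 2 Mb of *AHL22* and had 34.8 and 37.4 CPM in *frs7 frs12*, against 17.39 and 16.5 CPM in *ahl22* (1.09 ± 0.12, adjusted p = 1.5e-07).

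Light-signalling and flowering genes were called in both directions. Of 22 photomorphogenesis and shade genes tested, *PIF3*, which promotes growth in darkness, had 53.0 and 55.2 CPM in *frs7 frs12*, against 32.1 and 33.8 CPM in *ahl22* (0.72 ± 0.10, adjusted p = 5.2e-06 by edgeR). *BBX29* was lower (-1.16 ± 0.19), with smaller decreases of *BBX22* and *SPA1*, which makes 2 higher and 4 lower, where 5.28% of all genes were higher and 4.67% lower. Without the first or the second *ahl22* library 1 was higher and 1 lower. *BBX22* and *SPA1* lost their calls without either *ahl22* library (adjusted p = 0.059 to 0.22). Of 12 flowering genes, *MAF3*, a repressor related to *FLC*, had 28.5 and 24.7 CPM in *frs7 frs12*, against 13.0 and 14.1 CPM in *ahl22* (0.97 ± 0.14, adjusted p = 1.1e-05). *MAF3* lies on the stretch at 24 to 27 Mb of chromosome 5. *CO*, the photoperiod activator, was higher (1.05 ± 0.32, adjusted p = 0.034), a call lost without the second *frs7 frs12* library or either *ahl22* library (adjusted p = 0.17 to 0.26). *CDF3*, of a family that represses *CO*, was lower (-0.58 ± 0.10).

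The remaining lists are read against the 5.28% of all genes that were higher and the 4.67% that were lower. Of 18 aquaporin genes, 5 were higher, with the tonoplast gene *TIP2* at 4326 and 3894 CPM in *frs7 frs12*, against 2714 and 2661 CPM in *ahl22* (0.61 ± 0.06), and 2 were higher without the second *ahl22* library. Of 12 hypoxia genes, 3 were higher, led by *RAP2.3* (0.62 ± 0.06). *RAP2.3*, *ETR2* and the aquaporin gene *TIP2* lie on the chromosome 3 stretch, and outside the stretches 1 of 7 hypoxia genes was higher. That gene, *HB1*, was at 0.73 and did not pass with DESeq2 (adjusted p = 0.062). Its log2 fold change was 0.63 without the second *ahl22* library, where its call was also lost. Among endodermis genes 3 of 17 were higher and 1 was lower, but without the first *ahl22* library 1 was higher and without the second 0 were, *CASP5* included (1.19 ± 0.26, adjusted p = 0.10 without the second). Of 41 class III peroxidase genes, 5 were higher and 3 lower, against 1 and 2 higher without the first and the second *ahl22* library. Of 118 cytosolic ribosomal protein genes, 5 were higher and 3 lower, and 17 were higher without the second *frs7 frs12* library. Of 41 histone genes, 2 were higher and 1 lower. *HTA4*, a histone H2A gene, was higher (1.59 ± 0.20), *AT5G65360* lost its call without the first *ahl22* library (adjusted p = 0.090), and the linker histone gene *HIS1-3* was lower (-0.65, adjusted p = 0.0077 by edgeR) but not without the second *ahl22* library (adjusted p = 0.31).

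The calls of the iron, heat shock and salicylate lists were each lost when 1 library was left out. Of 15 iron genes, *FER1* and *OPT3* were higher, and both were lost without either *ahl22* library (adjusted p = 0.099 to 0.45 by edgeR), *OPT3* also without the first *frs7 frs12* library (adjusted p = 0.11). Of 10 heat shock genes, *HSFA7A* was higher but not without the second *frs7 frs12* library or either *ahl22* library (adjusted p = 0.15 to 0.28). Of 12 salicylate and immunity genes, *ICS1* was higher and *PAD3* lower, and neither passed without the first *frs7 frs12* library or either *ahl22* library (adjusted p = 0.14 to 0.49). Flavonoid genes (7 tested) and root markers (4 tested) gave 0 calls with edgeR, but 1 root marker was lower without the second *frs7 frs12* library.

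Of 87 chloroplast-encoded genes 4 were higher and 1 was lower, and of 36 mitochondria-encoded genes 2 were higher. The shares over all genes were 5.28% higher and 4.67% lower. The mitochondrial genes had a median of 0.72 with 33 of 36 positive, and a median of 0.26 without the second *frs7 frs12* library and 1.44 without either *ahl22* library. Without the first *frs7 frs12* library their median was 1.78 and 28 were higher, and 14 chloroplast genes were higher. *ATCG00860* had 10.4 and 60.3 CPM in *frs7 frs12*, against 7.98 and 10.3 CPM in *ahl22*, and was not called without the second *frs7 frs12* library (0.18, adjusted p = 0.66 by edgeR). *ATCG01010* and *ATMG00830* also lost their calls without that library (adjusted p = 0.40 and 0.089). The second *ahl22* library decided *ATMG01090* and *ATMG00830* (adjusted p = 0.36 and 0.13 without it), and the first decided *ATCG01010* and *ATCG01280* (adjusted p = 0.18 and 0.065 without it).

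**Figure D5:**
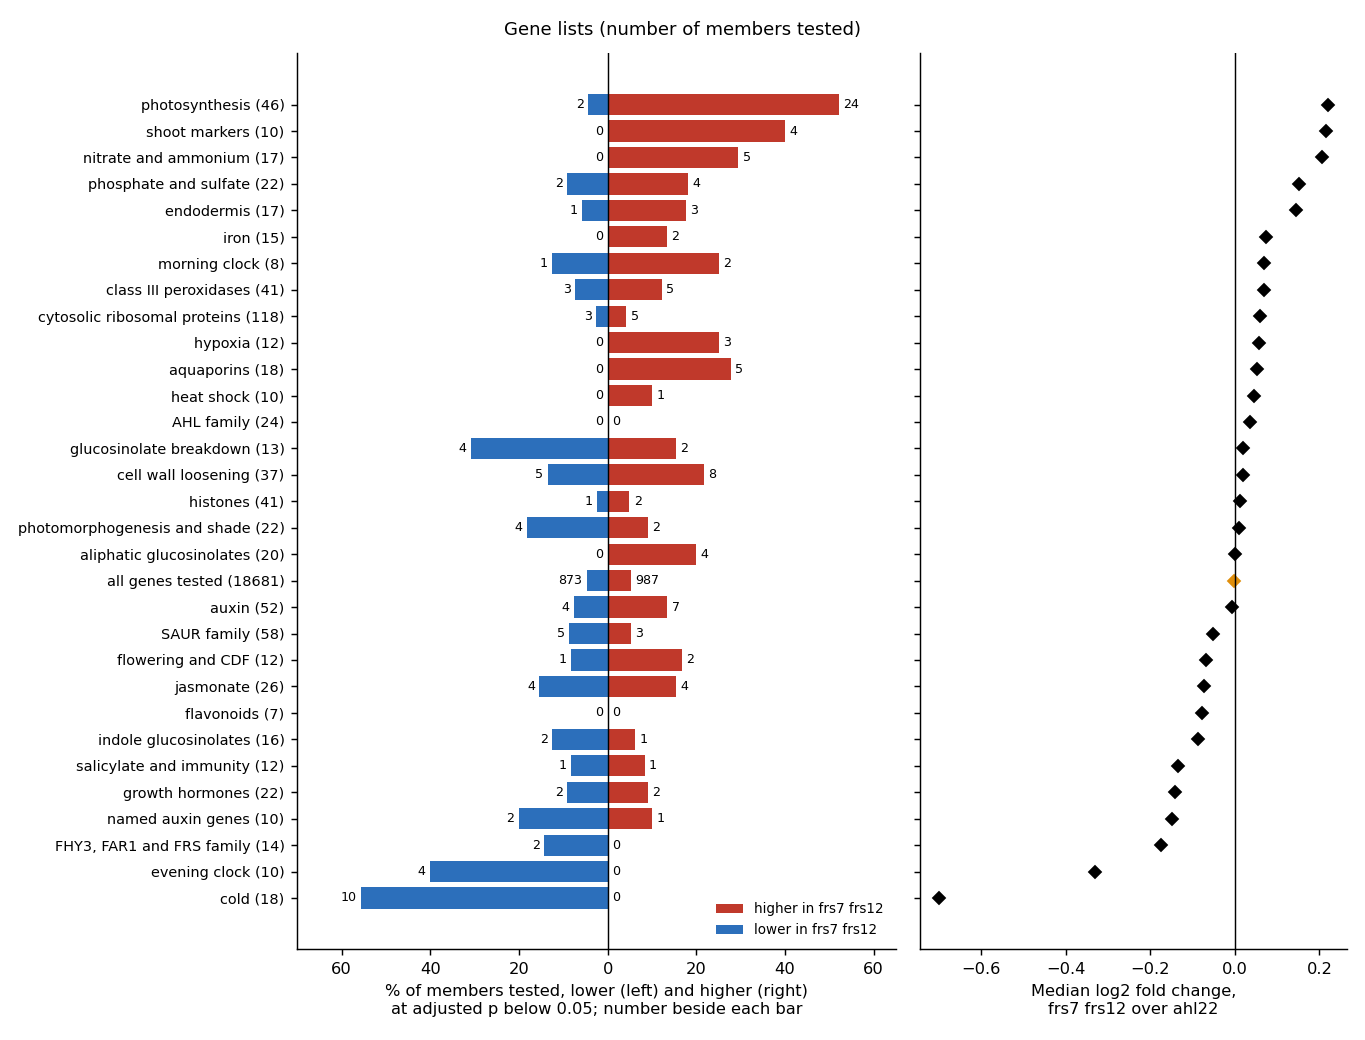
For each gene list (number of members tested in parentheses), the percentage of members that passed an adjusted p of 0.05 as higher (red, right) or lower (blue, left) in *frs7 frs12* relative to *ahl22*, with counts beside the bars, and the median log2 fold change (diamonds, right panel; orange for all genes). Lists of nuclear genes with at least 7 members tested are plotted, and organelle-encoded genes are left out. Of those plotted, the cold list has the lowest median, -0.70 with 10 of 18 members lower, and the photosynthesis list the highest, 0.22 with 24 of 46 members higher.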

How the data were processed

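Seedling RNA-seq libraries were sequenced by the authors, aligned to TAIR10 with HISAT2 and summarized per gene with Subread, and the deposited values are raw counts. Whether strand was used is not given in the sources used here. The labels and the study's methods differ in growth medium, temperature and library kit. The 4 libraries were fitted with edgeR 4.0.16 in R 4.3.3 (TMM scaling, filterByExpr, quasi-likelihood test, Benjamini-Hochberg adjustment), and DESeq2 1.42.0 was an alternative. SE is the absolute log2 fold change divided by the square root of F. The p-values set each difference against the spread between the 2 libraries per genotype, which edgeR moderates towards a trend over all genes. *ahl22 frs7 frs12* was fitted apart from them. Genes, overlaps, primers and promoters were placed on RefSeq TAIR10.1, and copies were sought with blastn 2.17.0. A second Col-0 pair (2 columns) was not used, and 37 listed symbols were unmatched.

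Members and lists were chosen with earlier results of these data known. Named genes were the mutated genes, the 10 largest increases and decreases among non-overlapping DEGs with a mean of at least 50 scaled counts, up to 4 called members per list with the smallest p and the list's defining members, and the auxin genes the study names. Other named genes, the silent genes and the rule for chromosome stretches were chosen after values were seen. The edgeR and DESeq2 steps were tested on simulated data.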

Additional observations from a re-analysis of the deposited data

How the results depend on the processing

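Against 115 DEGs higher and 189 lower in *frs7 frs12*, DESeq2 gave 75 and 125, and a test against a 2-fold change in edgeR gave 32 and 47. At an adjusted p below 0.05, 987 genes were higher and 873 lower, against 557 and 347 with DESeq2 and 461 and 344 when all mutant libraries shared 1 spread. Leaving out 1 library gave 82 to 160 higher and 119 to 302 lower DEGs, and 350 to 1398 higher and 304 to 1359 lower genes at the adjusted p, with the lone library of a mutant assumed to vary like the others. Upper-quartile or RLE scaling, either filter on low counts and robust estimation moved these counts by less than 1.5 times. With the replicate number as a block there were 130 higher and 223 lower DEGs (1384 and 1215 at the adjusted p). The labels do not say that a number marks a shared batch, and the replicate differences of the mutants had a correlation of 0.00661 across 18681 genes. Of 167 genes followed, no call reversed in any alternative, and 1759 of 1979 gene and setting pairs stayed on the same side of the threshold. The log2 fold changes of *SAUR14* (-0.27 to 0.016) and *SAUR15* (-0.038 to 0.26) changed sign between alternatives without being called. The count of DEGs per stretch under each alternative was an analysis chosen after seeing the data. With DESeq2 the stretches held 34, 67, 22 and 12 DEGs and the remainder of the chromosomes 64. With 2 libraries per genotype, small changes cannot be told from replicate spread.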

Other observations

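Some neighbouring genes on chromosome 4, outside the stretches described, were lower together in *frs7 frs12*, and they were chosen after their values were seen. *AT4G16970*, annotated as a protein kinase gene, had 4.41 and 3.25 CPM in *frs7 frs12*, against 73.9 and 76.7 CPM in *ahl22*, and *AT4G16940*, annotated as a leucine-rich repeat gene, was lower as well (-3.69 on the log2 scale). Farther along the chromosome, *AT4G22485*, annotated as a lipid transfer protein gene, had 107 and 94.0 CPM in *frs7 frs12*, against 244 and 232 CPM in *ahl22*, and *AT4G22490*, *AT4G22505*, *AT4G22513*, *AT4G22517* and *AT4G22520* beside it were DEGs in the same direction.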
